A study of Homo sapiens with 6 samples.

Results

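PMEPA1 (prostate transmembrane protein, androgen induced 1; ENSG00000124225.15) encodes a membrane-anchored protein that is switched on by TGF-beta and then dampens the same pathway. It is described here in HaCaT cells, an immortalised human keratinocyte line, held at 37C (3 libraries) or warmed to 41C (3 libraries) for 1 h on each of 3 days. The gene is 1 of 15379 rows of the deposited tables and 1 of the 12056 genes with enough reads to be tested. It was chosen by its count difference between 41C and 37C in these same libraries, so its levels and its change are given as a description, without a test. All 6 libraries share the cell line, and the labels give no genotype change. The sources used here do not say when after the last warming RNA was taken, and no label states whether replicates came from different cultures, so the spread between them may be technical.

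TGF-beta ligands bind a pair of receptor kinases, which phosphorylate SMAD2 and SMAD3; these join SMAD4 and enter the nucleus to switch genes on or off. In keratinocytes the pathway is known for slowing division and raising matrix and migration genes. Several of its targets act as brakes. SMAD7 blocks the receptors, SKI and SKIL repress SMAD complexes, and PMEPA1 keeps SMAD2 and SMAD3 from being recruited to the receptor. PMEPA1 also carries motifs that bind ubiquitin ligases of the NEDD4 family, and it was first described as a gene induced by androgen in prostate cells.

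Library totals ran from 19659112 to 20856144 counts. The keratin genes KRT5 and KRT14 averaged 2935 and 1401 CPM (counts per 1000000 counts, scaled between libraries by TMM factors) at 37C, as the keratinocyte label requires. Of 10 fibroblast markers 9 had a row, and their summed level was 14.0 to 16.8 CPM at 37C and 16.0 to 18.1 CPM at 41C, most of it from COL3A1. The fibroblast markers COL6A3, LUM, PDGFRA, PDGFRB, THY1 and FAP had at most 4 counts in any library.

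PMEPA1 lies on the minus strand of chromosome 20 at 57648392 to 57711536 (GRCh38, GENCODE release 29), with 8 annotated transcripts. RefSeq gives 4 separate start sites for it, and a single count per gene cannot say which of them was used. The 250 bases before each start were searched on both strands for the SMAD element CAGAC, the SMAD palindrome GTCTAGAC, the paired heat shock unit GAANNTTC and the AP-1 site TGANTCA. The SMAD element was present before 2 of the 4 starts, and 38% of 35116 RefSeq promoter windows of that length hold it. The other motifs had no match before any of the 4 starts; 0.182%, 5.78% and 6.57% of all windows hold the palindrome, the heat shock unit and the AP-1 site. The 2 matched stretches are shown because they are the only places where any of these letters occur; both come from the RefSeq promoter table (GRCh38.p14, minus strand, 5′ to 3′), with the CAGAC element in capitals.
Start at 57710577, element 115 bases before it (chr20:57710678-57710702): ccttgggcagCAGACaatgggtgtg
Start at 57690686, element 71 bases before it (chr20:57690743-57690767): ggctccacccCAGACttccggcagg
A match of 5 letters describes these windows and is not evidence of SMAD binding.

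The long noncoding gene NKILA is annotated on the opposite strand across the first bases of PMEPA1. The 2 genes overlap from 57710183 to 57711536, and 343 bases of that stretch are exon in both, out of 5619 exonic bases of PMEPA1. The library kit keeps strand, but whether the counting used strand is not given here, so reads of NKILA and PMEPA1 in those bases may not have been told apart. NKILA was not analysed here, and its part in the PMEPA1 counts was not tested.

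PMEPA1 had 1794, 1689 and 1903 counts in replicates 1 to 3 at 37C, and 2909, 3485 and 2965 counts in replicates 1 to 3 at 41C. On the CPM scale its levels were 90.1, 85.4 and 96.4 at 37C and 139.6, 169.1 and 149.3 at 41C. Every library at 41C was above every library at 37C, and the lowest at 41C was 1.45 times the highest at 37C. Such a separation, with 41C higher, was seen in 11.2% of all tested genes. The means were 90.6 ± 5.49 CPM and 152.7 ± 15.0 CPM (SD, n = 3 each), a log2 change of 0.75 ± 0.07 (SE). Over the 9 pairings of a library at 41C with one at 37C, the ratio ran from 1.45 to 1.98. The pairs with equal replicate numbers gave 1.55, 1.98 and 1.55. The high ratio of the second pair combined the highest library at 41C with the lowest at 37C.

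**Figure D1:**
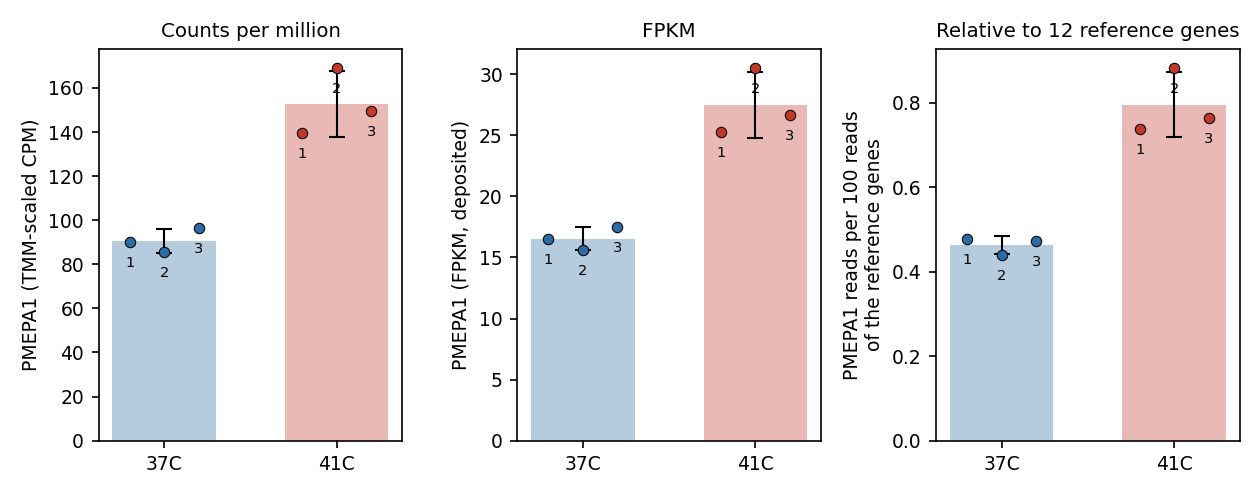
PMEPA1 in each library as TMM-scaled CPM (left), as the deposited FPKM (middle) and per 100 reads of 12 reference genes (right). Bars are means, error bars are SD (n = 3), points are libraries numbered by replicate; in each panel the 3 points at 41C lie above the 3 at 37C, and replicate 2 at 41C is the highest.

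The spread between replicates of PMEPA1 was wider than read counting gives. With these counts, counting error alone is 1.69 to 2.43% of the value per library, while the coefficient of variation was 6.06% at 37C and 9.84% at 41C. On the log2 scale the spread within groups was 0.12, against a median of 0.06 among the 500 genes nearest to it in level. Of those 500 genes, 12.2% varied more than PMEPA1 did. The difference between the temperatures was thus carried by a gene that was also among the more variable ones at its level.

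The difference in PMEPA1 was of like size against other yardsticks. Per 100 reads of 12 reference genes summed, PMEPA1 had 0.478, 0.438 and 0.472 reads in replicates 1 to 3 at 37C and 0.738, 0.882 and 0.763 in replicates 1 to 3 at 41C. That is 1.72 times as many at 41C. Against each reference gene alone the ratio was 1.54 (against GUSB, a lysosomal enzyme) to 1.89 (against B2M, a subunit of MHC class I), and for all 12 the groups did not overlap. GAPDH and ACTB, the glycolytic enzyme and the actin most often used for this purpose, gave 1.75 and 1.55.

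By level per length, PMEPA1 was a moderately abundant transcript. The authors' FPKM values were 16.5, 15.6 and 17.5 in replicates 1 to 3 at 37C and 25.3, 30.5 and 26.7 in replicates 1 to 3 at 41C. Among all 15379 rows it ranked 3825, 3974 and 3615 in replicates 1 to 3 at 37C, and 2637, 2187 and 2496 in replicates 1 to 3 at 41C. By mean FPKM over the 6 libraries it was number 2995 of the tested genes (22.0 FPKM). Transcripts of nearly the same level were RBM34 and ACADM above it, a nucleolar protein gene and a mitochondrial fatty acid oxidation enzyme, and CALCOCO2 below it, an autophagy receptor (22.0 FPKM each). RBM34, ACADM and CALCOCO2 had log2 changes of -0.07, -0.04 and -0.10 and did not pass.

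By size of change PMEPA1 stood near the top of the table. Among the 10985 tested genes whose mean log2 CPM was 1 or more, it had the third-highest log2 change, and over all 12056 it was number 25. The 2 genes above it in the first ranking were EIF3CL (0.92 ± 0.85) and EIF3C (0.88 ± 0.26), which encode an initiation factor subunit. They are near-identical copies that can share reads, so their values are uncertain, and neither passed the test (adjusted p = 0.725 and 0.268 in edgeR). Just below it were RAB7B (0.66 ± 0.22), BOLA2-SMG1P6 (0.64 ± 0.48) and ITPR1 (0.63 ± 0.23), with mean levels of 1.80 to 3.99 CPM; none passed (adjusted p = 0.170, 0.629 and 0.211 in edgeR). Counting differences in either direction, PMEPA1 was number 13 of these 10985 genes. In absolute terms PMEPA1 had 62.1 CPM more at 41C, the 53rd largest gain.

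**Figure D2:**
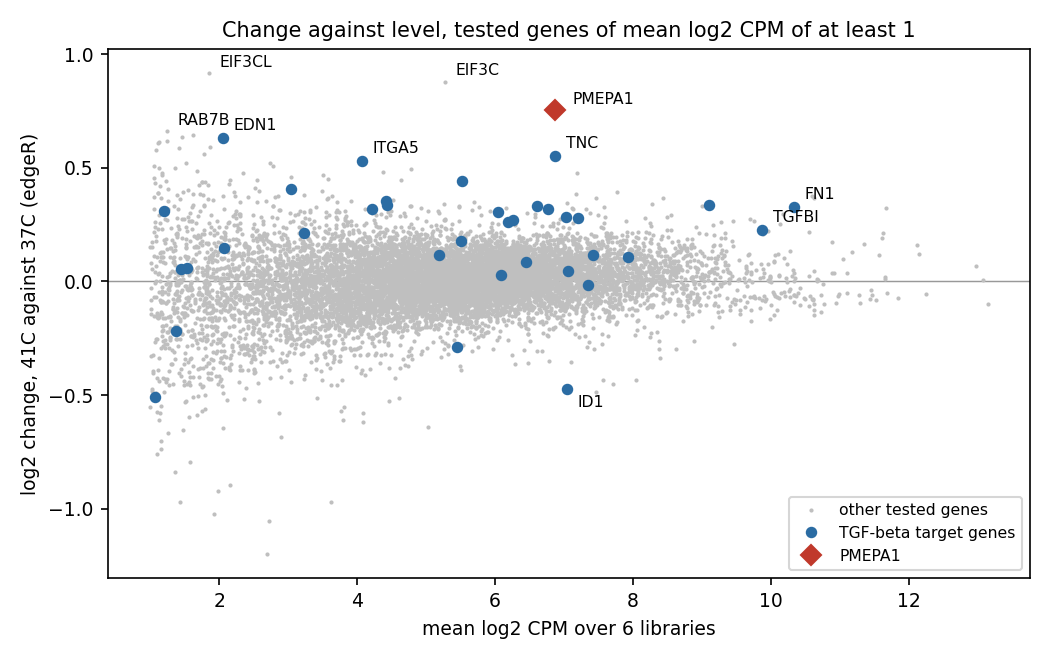
Log2 change at 41C against 37C over mean log2 CPM for the 10985 tested genes whose mean was 1 or more; grey points are genes, blue points TGF-beta target genes, the red diamond PMEPA1. PMEPA1 (0.75) lies above every gene near its level, and the 2 genes above it, EIF3CL and EIF3C, are near-identical copies.

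Genes like PMEPA1 in abundance or length had smaller log2 changes. PMEPA1 was chosen by its difference in these libraries, so its place above them is a description only. The 500 nearest in level (105.9 to 130.9 CPM) had a median log2 change of 0.03 and a highest value of 0.55, reached by TNC. The 500 nearest in length (5300 to 5736 bases, around the 5514 bases that the FPKM table implies for PMEPA1) had a median of 0.02 and a highest value of 0.55. Over all tested genes the median was 0.002.

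The transcripts whose values were most like those of PMEPA1 were named by the root mean square difference of log2 CPM over the 6 libraries, each gene set to its own mean at 37C. The 6 closest of 10984 were RAB7B (0.107), EDN1 (0.136), TNC (0.160), WNT7A (0.198), ITGA5 (0.204) and COL18A1 (0.213), against a median of 0.542. This measure uses the same libraries and the same contrast as the choice of PMEPA1, so it finds genes with a difference of like size and supports nothing further. EDN1 encodes endothelin, TNC the matrix protein tenascin, WNT7A a Wnt ligand, ITGA5 a fibronectin receptor subunit and COL18A1 a basement membrane collagen. RAB7B, a small GTPase gene, came first at a level near 2 CPM, with 1.71, 1.72 and 1.98 CPM at 37C and 2.45, 3.40 and 2.72 CPM at 41C. Like PMEPA1, all 6 genes were highest in replicate 2 at 41C. TNC had 101.5, 85.2 and 105.3 CPM at 37C and 142.4, 151.0 and 134.4 CPM at 41C. TNC, EDN1 and WNT7A had the same lowest library (replicate 2 at 37C) and highest library (replicate 2 at 41C) as PMEPA1. Among the 6, TNC (log2 change 0.55 ± 0.08), WNT7A (0.49 ± 0.08), ITGA5 (0.53 ± 0.11) and COL18A1 (0.48 ± 0.09) passed (adjusted p = 0.00498, 0.00766, 0.0221 and 0.0185 in edgeR), while RAB7B and EDN1 (0.63 ± 0.17) did not (adjusted p = 0.170 and 0.0826 in edgeR). The calls of all 4 ended without replicate 2 at 41C. Those of WNT7A, ITGA5 and COL18A1 also ended without replicate 2 at 37C, and those of ITGA5 and COL18A1 without replicate 1 at 41C or replicate 3 at 41C. EDN1 passed without replicate 3 at 37C and in 1 of 10 alternative settings.

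**Figure D3:**
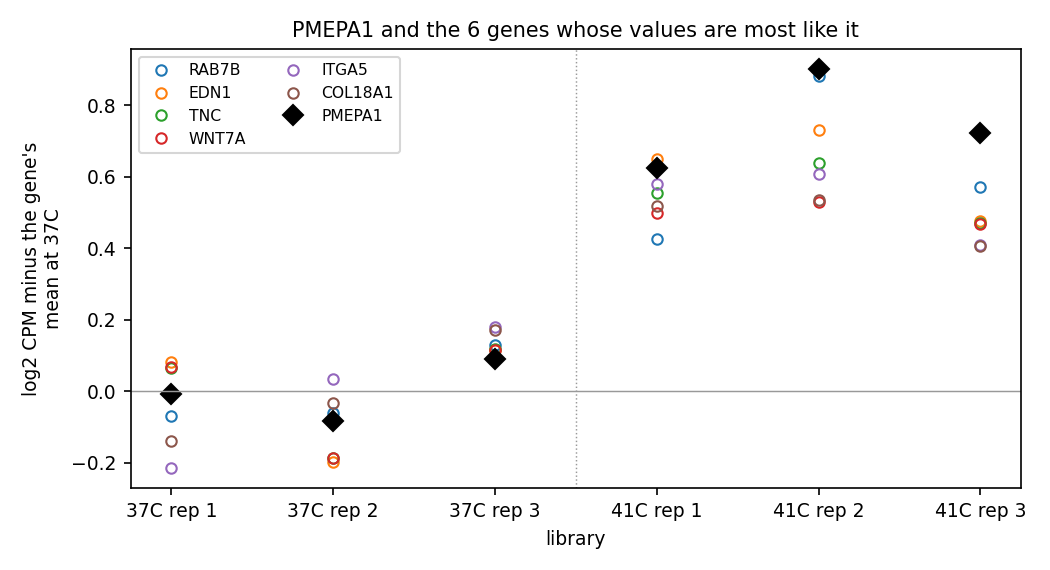
Log2 CPM minus the gene's mean at 37C, in each of the 6 libraries, for PMEPA1 (black diamonds) and the 6 genes closest to it (open circles). In replicate 2 at 41C PMEPA1 and RAB7B lie together above the other 5 genes, and in replicate 3 at 41C PMEPA1 lies above all 6.

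TGF-beta target genes were then set beside PMEPA1, since it is itself such a target. Of 37 tested members of a 39-gene list (PMEPA1 not included) 12 rose and 0 fell, or 32.4% called, against 1.09% of all tested genes (0.821% higher and 0.265% lower). The members were chosen with earlier results of these libraries known, and the 12 include genes already known to differ, so the count is no independent evidence of direction. The median log2 change was 0.23, against 0.002 over all tested genes, and 31 of the 37 values were positive, against 50.9% of all genes. PMEPA1 (0.75) lay above every one of the 37, of which EDN1 was the highest.

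FN1, which encodes the matrix protein fibronectin, had 23570, 22707 and 22516 counts at 37C against 29040, 30507 and 29332 at 41C. It rose from 1157 ± 22.7 to 1451 ± 49.2 CPM (SD, n = 3; log2 change 0.33 ± 0.04; adjusted p = 0.00162 in edgeR), with no overlap between the groups. In CPM its highest library was replicate 2 at 41C, as for PMEPA1, but its lowest was replicate 3 at 37C. The call of FN1 ended without replicate 2 at 41C. Other members that rose were TNC, ITGA5, the anchoring collagen COL7A1, the gelatinase MMP2, PTHLH, which encodes a parathyroid hormone-related protein, the collagen COL4A1, the repressor SNAI2, the adhesion scaffold NEDD9 and the matrix protein TGFBI. Their log2 changes ran from 0.23 (TGFBI) to 0.55 (TNC), less than PMEPA1 in each case.

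Not every target passed, and some were lower at 41C. CCN2, a widely used reporter of TGF-beta, had 43, 35 and 40 counts at 37C against 44, 57 and 50 at 41C (log2 change 0.31 ± 0.22; adjusted p = 0.570 in edgeR). At these low counts its SE was wide, and its log2 change was above that of TGFBI (0.23 ± 0.04), which passed. The cell cycle inhibitors CDKN1A and CDKN2B, through which TGF-beta slows keratinocyte division, had log2 changes of 0.09 ± 0.06 and 0.03 ± 0.07 (adjusted p = 0.528 and 0.919 in edgeR). ID1, ID2 and ID3, which TGF-beta can repress and BMP signals induce, had log2 changes of -0.47, -0.51 and -0.29 and did not pass, although in each of them all libraries at 41C were below all at 37C (8.84% of tested genes did this).

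The count of 12 rested on single libraries. It was 3 without replicate 2 at 37C, 19 without replicate 3 at 37C (18 higher, 1 lower), 7 without replicate 1 at 41C, 0 without replicate 2 at 41C and 7 without replicate 3 at 41C (6 higher, 1 lower). Without replicate 1 at 37C it was 12 higher and 1 lower. Calls over all tested genes moved in the same fits. They were 99 higher and 32 lower with all libraries, and 10 and 7 without replicate 2 at 37C. Without replicate 3 at 37C they were 483 and 322, and without replicate 1 at 37C 119 and 104. They were 30 and 6 without replicate 1 at 41C, 4 and 1 without replicate 2 at 41C and 30 and 11 without replicate 3 at 41C. The log2 change of PMEPA1 stayed between 0.67 (without replicate 2 at 41C) and 0.81 (without replicate 1 at 41C) in these 6 fits. Of 12 keratinocyte markers 4 rose (KRT14, KRT6A, COL17A1 and ITGB4) and 0 fell, or 33.3% called, against 0.821% higher and 0.265% lower over all tested genes. The summed level of the 12 was 7397 to 8126 CPM at 37C and 8647 to 8940 CPM at 41C. The 4 became 2 without replicate 1 at 37C, 0 without replicate 2 at 37C, 7 without replicate 3 at 37C, 2 without replicate 1 at 41C, 0 without replicate 2 at 41C and 2 without replicate 3 at 41C. The calls over all genes in these fits, given above, moved too. Of the 12 log2 changes 10 were positive, but those of TP63, SFN and DSG3 were only 0.04, 0.08 and -0.01. EPCAM had -0.10 and did not pass, with all libraries at 41C below all at 37C (8.84% of tested genes did this). The part of these markers in the result was not tested. In bulk RNA, more cells of a kind and more RNA per cell cannot be told apart.

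**Figure D4:**
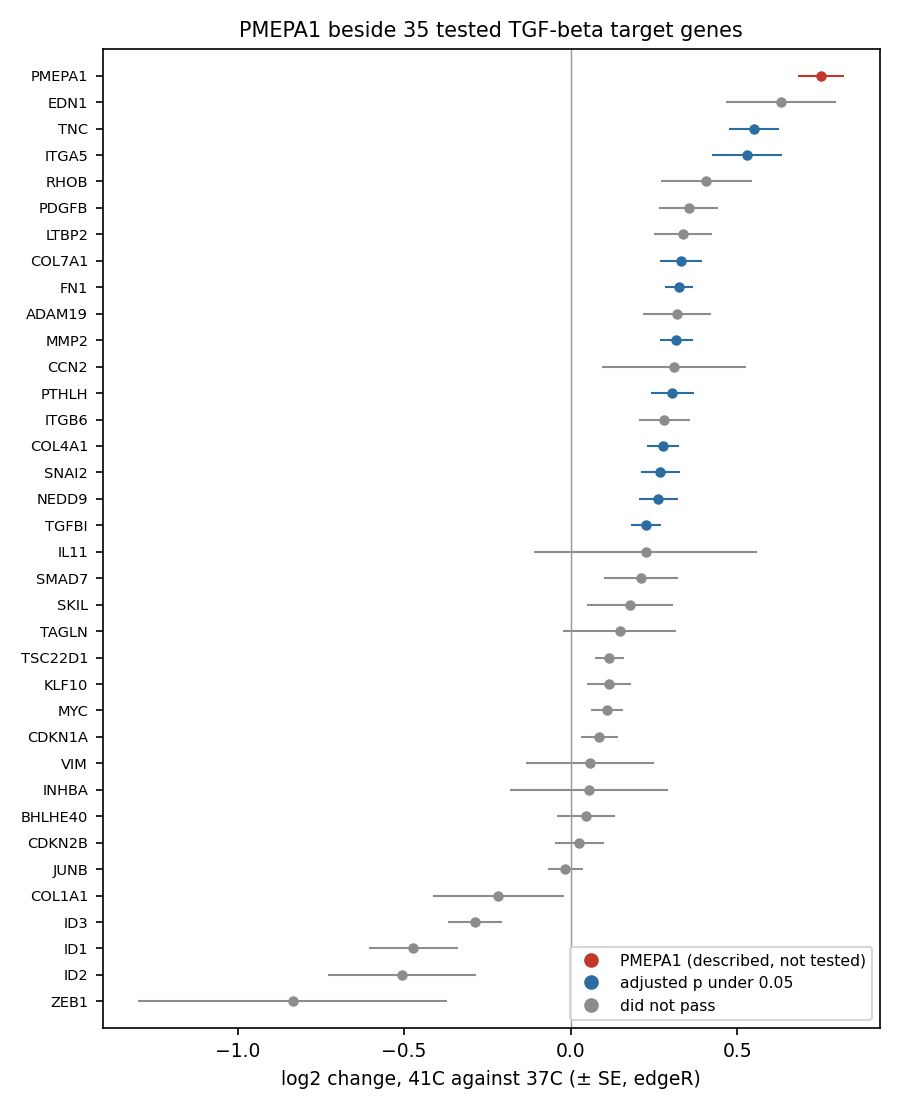
Log2 change at 41C against 37C with its SE (edgeR) for PMEPA1 (red) and 35 of the 37 tested TGF-beta target genes, ordered by value; blue marks the 10 of these that passed an adjusted p of 0.05. PMEPA1 is at the top, and ID1, ID2, ID3 and ZEB1 are among the lowest values without passing.

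The other inhibitors of the pathway that were tested had smaller log2 changes than PMEPA1, from -0.40 to 0.25. Of 17 inhibitor genes 14 had a row and 12 were tested; 0 passed in edgeR, DESeq2 or limma-voom, and 1 had an unadjusted p under 0.05. Both counts are near the background, since 1.09% of all tested genes passed in edgeR and 13.7% had an unadjusted p under 0.05. Their median log2 change was 0.02. SMAD7, the receptor-blocking SMAD, had 182, 168 and 161 counts at 37C against 215, 208 and 188 at 41C (log2 change 0.21 ± 0.11; adjusted p = 0.414 in edgeR). Its groups did not overlap, with 41C higher, as in 2 of the 12 tested inhibitors and 11.2% of all tested genes. In 1 of the 12 all libraries at 41C were below all at 37C (8.84% of all tested genes did this). The corepressors SKI and SKIL had log2 changes of 0.25 ± 0.09 and 0.18 ± 0.13 (adjusted p = 0.232 and 0.612 in edgeR). SKI was the highest of the 12. BAMBI, a decoy receptor, gave 13 to 26 counts per library. LDLRAD4, the paralog of PMEPA1, was not analysed here.

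In level per length PMEPA1 was among the more abundant of these inhibitors. At 37C its 16.5 ± 0.949 FPKM lay below FKBP1A (293.5 ± 12.8), a receptor-binding immunophilin, STRAP (72.5 ± 3.38), a receptor-associated adaptor, and TOB1 (22.1 ± 0.744), an antiproliferative protein gene, and above TGIF1 (12.5 ± 0.535), a SMAD corepressor. At 41C its 27.5 ± 2.70 FPKM lay above TOB1 (20.5 ± 0.295). The other feedback genes were lower at 37C, with 5.89 ± 1.18 FPKM for SKIL, 2.95 ± 0.308 for SKI and 2.34 ± 0.151 for SMAD7. These gaps to PMEPA1 were larger than the SD of either gene.

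The parts of the pathway upstream of PMEPA1 gave 0 calls in the main edgeR fit, but some in other settings. Of 17 tested genes for ligands and their activation 0 passed and 9 had an unadjusted p under 0.05. Their log2 changes ran from -1.31 to 0.54 with a median of 0.16, and 13 of the 17 were positive. DESeq2 called 3 of them higher (184 of all 12056 genes were called) and limma-voom 0 (123 of all were called). Over all tested genes 1.09% passed in edgeR, so 0 of 17 is near the background, while 13.7% had an unadjusted p under 0.05, a smaller share than 9 of 17. TGFB1 had 802, 733 and 865 counts at 37C against 961, 852 and 959 at 41C (log2 change 0.16 ± 0.08; adjusted p = 0.3605 in edgeR), so its groups overlapped where those of PMEPA1 did not. TGFB2 had a log2 change of 0.23 ± 0.07 (adjusted p = 0.124 in edgeR). THBS1, which encodes an activator of latent TGF-beta, had 1362 ± 149 CPM at 37C and 1765 ± 129 CPM at 41C without passing in edgeR (log2 change 0.37 ± 0.09; adjusted p = 0.0984 in edgeR), and was among the 3 called by DESeq2. The protease gene FURIN, which cleaves the TGF-beta precursor, and LTBP2 had log2 changes of 0.23 and 0.34 (adjusted p = 0.0806 each in edgeR). INHBB, which encodes an activin subunit, went the other way at low counts, with 17, 19 and 15 at 37C against 7, 2 and 12 at 41C. Its log2 change was -1.31 ± 0.46 (adjusted p = 0.199 in edgeR). Without replicate 3 at 37C, 5 genes of this list were higher, and 3 without replicate 1 at 37C. Over all tested genes, 483 were higher and 322 lower of 12154 without replicate 3 at 37C. Without replicate 1 at 37C, 119 were higher and 104 lower of 12148. With the replicate block 4 genes of this list were higher (297 higher and 141 lower over all genes). Without a low-count filter 3 were higher (184 higher and 100 lower over all genes).

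The log2 changes of receptors (0.02 to 0.18) and of SMADs and their partners (-0.09 to 0.19) were smaller than that of PMEPA1. Of 6 tested receptors 0 passed in edgeR, DESeq2 or limma-voom (1 had an unadjusted p under 0.05), both near the shares of all tested genes (1.09% called, 13.7% with an unadjusted p under 0.05). TGFBR1 and TGFBR2, the signalling receptor pair, had log2 changes of 0.02 ± 0.09 and 0.07 ± 0.05. TGFBR3, ACVR1C, ACVRL1 and ENG had at most 8 counts per library and were not tested. Of 8 tested SMADs and partners 0 passed in edgeR, DESeq2 or limma-voom, and 4 had an unadjusted p under 0.05, against the same 1.09% and 13.7% of all tested genes. SMAD2, SMAD3 and SMAD4 had log2 changes of -0.05 ± 0.05, 0.11 ± 0.04 and 0.07 ± 0.06 (adjusted p = 0.708, 0.280 and 0.685 in edgeR). The coactivator CREBBP had the smallest adjusted p of the list (log2 change 0.19 ± 0.05, adjusted p = 0.0617 in edgeR). It passed without replicate 3 at 37C and in 2 of 10 alternative settings. With the replicate block, and also without a low-count filter, 1 member of the SMAD list was called higher.

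Of 9 ubiquitin ligases of the family that PMEPA1 binds, 7 were tested, with levels of 7.35 to 31.3 FPKM at 37C, below and above its own. HECW1 and HECW2 had at most 3 counts in any library and were not tested. By mean FPKM at 37C the order was WWP1 (31.3 ± 3.05), ITCH (16.9 ± 1.90), PMEPA1 (16.5 ± 0.949), NEDD4L (16.2 ± 0.848), WWP2 (15.0 ± 0.352), SMURF1 (12.7 ± 0.574), NEDD4 (11.0 ± 1.56) and SMURF2 (7.35 ± 0.708). ITCH, PMEPA1 and NEDD4L did not differ beyond their spread. At 41C PMEPA1 (27.5 ± 2.70) stood between WWP1 (31.5 ± 1.68) and the other tested ligases. Of the 7 tested ligases 0 passed in edgeR, DESeq2 or limma-voom, which is near the 1.09% of all genes called, and 2 had an unadjusted p under 0.05 (13.7% of all tested genes did). NEDD4L and SMURF1 had log2 changes of 0.17 ± 0.05 and 0.16 ± 0.06 (adjusted p = 0.110 and 0.256 in edgeR). Both passed without replicate 3 at 37C, and NEDD4L also in 1 of 10 alternative settings. NEDD4 had -0.02 ± 0.08.

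Other membrane and adaptor proteins recruit these ligases through the same kind of motif, and their genes had log2 changes of -0.23 to 0.09, smaller than that of PMEPA1. Of 14 such genes 0 passed in edgeR, DESeq2 or limma-voom, 0 had an unadjusted p under 0.05, and 3 had a positive log2 change, with a median of -0.04. Over all tested genes 1.09% passed in edgeR, 13.7% had an unadjusted p under 0.05 and 50.9% had a positive log2 change, so 0 calls of 14 is near the background. NDFIP1 and NDFIP2, which activate NEDD4 ligases on endosomal membranes, had log2 changes of 0.02 ± 0.06 and -0.08 ± 0.05 (adjusted p = 0.940 and 0.536 in edgeR). The arrestin-like gene ARRDC3 had -0.23 ± 0.12 (adjusted p = 0.426 in edgeR) and was lower without replicate 3 at 37C.

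**Figure D5:**
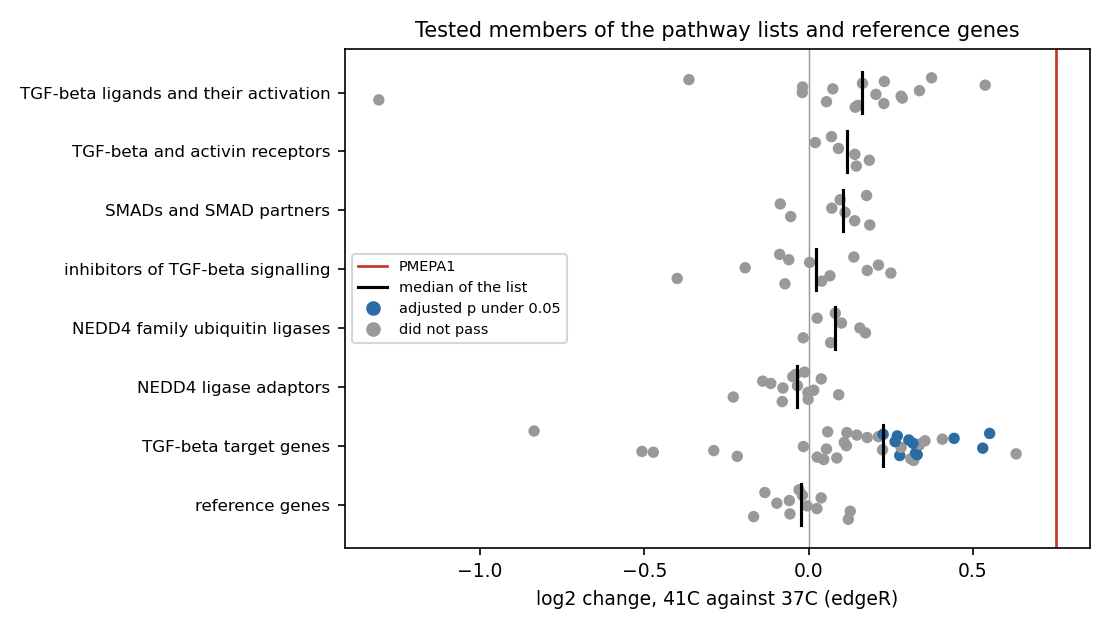
Log2 change at 41C against 37C for the tested members of 7 pathway lists and of 12 reference genes; blue points passed an adjusted p of 0.05, grey points did not, black lines are list medians and the red line is PMEPA1. The members that passed all belong to the target genes, and no member of any list reaches the red line at 0.75.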

How the data were processed

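Poly(A) RNA was sequenced from 6 HaCaT libraries with a stranded mRNA kit, per the labels' protocols. The submitters' processing notes list Trimmomatic 0.36 and HISAT2 as tools and GRCh38.p13 as the genome build; their roles, the HISAT2 version and the read counter are not given here. The authors deposited raw counts per gene symbol, not normalized, and FPKM values, which equal the counts per kilobase of 1 gene length per 1000000 counts of the library (within 0.0000282%).

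Counts were fitted over the whole table with edgeR 4.0.16 in R 4.3.3: filterByExpr (12056 genes kept), TMM factors, robust quasi-likelihood test of 41C against 37C, two-sided, Benjamini-Hochberg adjustment over all genes tested, threshold 0.05. The procedure was tested on counts simulated from the levels and dispersions fitted to these libraries. That test does not bear on the shifts seen when a library was left out. CPM values are TMM-scaled; log2 CPM used a prior count of 2. With 3 libraries against 3, an exact permutation test of 1 gene cannot go below p = 0.1. The alternatives were DESeq2 1.42.0, limma-voom and limma 3.58.1 on log2(FPKM + 1) or log2(FPKM + 0.1), other scaling factors and filters, a length correction (spline with 4 degrees of freedom), a replicate block and each library left out.

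PMEPA1, the gene lists and the rule for named genes were chosen with earlier results of these data known. Named were all list members past the threshold, the 3 smallest p-values per pathway list, 16 pathway genes by name, the 6 genes most like PMEPA1, tested genes within 1 Mb, and its neighbours by change (3 each side) and level (2 each side). CDKN1A, CDKN2B, ID1, ID2, ID3, BAMBI and the other genes given with values were chosen after their values were seen. Some genes that the rule names are not reported here. The target list shares 5 members with other pathway lists. Counting error is the only error that depth sets.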

Additional observations from a re-analysis of the deposited data

How the results depend on the processing

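PMEPA1 was higher at 41C under each of 12 alternative tools, filters, scalings and units (log2 change 0.70 to 0.78) and with each library left out (0.67 to 0.81), each within the replicate SD of the main value. Among 10985 genes it ranked 2 to 5 by log2 change over the fits across all genes. The number of genes called was far less stable. Genes higher at 41C were 99, but 57 with upper-quartile factors, 184 without a low-count filter, 297 with the replicate block, 5 on log2(FPKM + 1) and 22 on log2(FPKM + 0.1), and 4 to 483 with a library left out. Genes lower were 32, but 61 with DESeq2, 53, 100, 141, 6 and 18 in the same order of settings, and 1 to 322 with a library left out; the split with upper-quartile factors was 57 higher to 53 lower. Both extremes of each range came without 41C replicate 2 and without 37C replicate 3. Target genes called were 12, but 1 on log2(FPKM + 1) and 5 on log2(FPKM + 0.1), and 0 to 19 with a library left out; the 0 inhibitor genes called stayed at 0 in every fit. The cause of these shifts was not tested. Whether equal replicate numbers pair the libraries was not settled. Deviations from the group means correlated at 0.08, -0.02 and 0.08 for replicates 1, 2 and 3. At 37C, replicates 1 and 3 correlated best with the same number at 41C, while replicate 2 correlated best with 41C replicate 3 (0.06). Deviations within a group of 3 depend on each other, so these correlations cannot decide the pairing. With the replicate block the log2 change of PMEPA1 was 0.75. Over 61 other named genes, 97 values lost a call, 19 gained one and none of the called ones changed sign.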

Other observations

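The tested neighbours of PMEPA1 on chromosome 20 had smaller log2 changes, at most 0.33. Of 46 other RefSeq genes that start within 1 Mb of it, 7 had a row and 6 were tested; 0 passed in edgeR, DESeq2 or limma-voom, and 1 had an unadjusted p under 0.05, near the 1.09% called and the 13.7% with such a p over all tested genes. RBM38, an RNA-binding protein gene (57391396 to 57409333), had 26.03 ± 2.42 CPM at 37C and 25.2 ± 0.627 CPM at 41C (log2 change -0.05 ± 0.08; adjusted p = 0.862 in edgeR). The mRNA export factor gene RAE1 had 68.7 ± 5.31 and 69.5 ± 1.58 CPM, and on the other side the GTPase gene RAB22A had 60.0 ± 1.39 and 63.0 ± 3.78 CPM and VAPB, which encodes a membrane contact protein of the endoplasmic reticulum, 150.4 ± 6.29 and 157.0 ± 1.11 CPM. APCDD1L, which lies beyond VAPB (58459101 to 58515399), was the only tested neighbour whose groups did not overlap (11.2% of all tested genes were separated with 41C higher), with 9.40 ± 0.789 and 11.8 ± 0.537 CPM (log2 change 0.33 ± 0.11; adjusted p = 0.177 in edgeR). BMP7, a ligand of the pathway related to TGF-beta, summed to 35 counts at 37C and 45 at 41C (log2 change 0.32 ± 0.40; adjusted p = 0.787 in edgeR).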
